A study of Mus musculus with 6 samples.

Results

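The ADAM proteins (a disintegrin and metalloprotease) of male germ cells are membrane proteins of spermatids and sperm that take part in the meeting of sperm and egg. ADAM2 pairs with ADAM1A in the endoplasmic reticulum of testis germ cells and with ADAM1B on the surface of mature sperm, and these pairs are known as fertilin. ADAM3 depends on such partners and on dedicated chaperones to reach the sperm surface, and mouse sperm without it neither pass into the oviduct nor bind the egg coat well. The genes described here are Adam1a, Adam1b, Adam2, Adam3, Adam5, Adam18, Adam24, Adam29, Adam30 and Adam32. All probes whose gene name on the array is one of these 10 symbols were taken, which gave 13 of 55681 probes (10 of 35019 gene names on the array), with a pair each for Adam3, Adam5 and Adam32. Each of the 13 probes is 60 bases long and is printed as 1 spot per array.

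RNA came from whole testis of male mice aged 3 months, 10 days after the scrotum was heated once to 43°C for 20 min. The B6.MRLc1 group was 3 samples of a congenic strain, C57BL/6 with the telomeric part of chromosome 1 from MRL mice, between 67.97 and 81.63 cM. The B6 group was 3 samples of wild-type C57BL/6 mice, heated in the same way. No unheated testis was analysed here, so no value is a response to heat. The study's title names the onset of calcification in the heated testis as its subject, and the comparison is B6.MRLc1 against B6. Of the 13 ADAM probes, 0 lie on chromosome 1, so none is in the MRL segment. According to the design text, the testes came from 3 mice per strain.

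Levels are log2 signal relative to the 75th percentile of the array, so that 0 is that percentile, and they compare samples for 1 probe, not probes with each other. The percentile itself was 558 to 666 units of intensity, with 0 saturated spots. A spot that the scanner software flags as well above background is called detected here. Of all spots, control and outlier spots included, 55.3% to 61.8% were detected on B6.MRLc1 arrays, against 65.5% to 65.9% on B6 arrays. The lowest detected probe stood at -5.31 to -4.49 on B6.MRLc1 arrays and at -5.76 to -5.67 on B6 arrays. The same dim signal could therefore pass in B6 and not in B6.MRLc1. A fold given below as "at least" sets B6 against these limits of the B6.MRLc1 arrays. It is no strict minimum, because a higher limit gives a smaller fold. The floor of an alternative fit was the highest limit, -4.49, on every array. All arrays lay on 1 slide, B6.MRLc1 in row 2 and B6 in row 1, so row and strain cannot be told apart. Every difference is B6.MRLc1 minus B6 on the log2 scale, tested with limma over all 36626 probes that were detected on at least 3 arrays, and a probe was called at a Benjamini-Hochberg adjusted p under 0.05.

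The sequences of the probes that the account turns on are given as the files list them, with mm9 positions. The first pair measures the partners Adam1a, on chr5:121969404-121969463 (minus strand), and Adam2, on chr14:66648532-66648591 (minus strand), whose readings parted in these testes.
Adam1a: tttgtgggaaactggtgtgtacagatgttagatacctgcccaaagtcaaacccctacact
Adam2: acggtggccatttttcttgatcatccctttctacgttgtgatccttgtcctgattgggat
The next pair is the probe nearer the 5′ end of Adam3, on chr8:25817871-25817930, and of Adam32, on chr8:25981159-25981218 (both minus strand), which were below the detection limit in B6.MRLc1.
Adam3 at base 1024: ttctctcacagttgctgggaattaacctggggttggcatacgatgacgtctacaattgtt
Adam32 at base 1868: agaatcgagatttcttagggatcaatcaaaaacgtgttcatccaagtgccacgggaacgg
The other Adam3 and Adam5 probes hold the letters AATAAA, in capitals below, which is the common polyadenylation signal. Of all probes on the array 10.1% hold them, read on the printed strand. Whether these letters lie in coding sequence or serve as that signal was not looked up. Only the 30 bases around those letters are shown.
Adam3 at base 2646: tacatgcctccaAATAAAgtctatggctga
Adam5 at base 2731: aaaccatgaactAATAAAtcagctatgact
No ADAM probe shared a run of 20 bases with any other probe on the array, Adam1a and Adam1b included. GC content was 45% for both fertilin probes printed above and ran from 35% (Adam1b) to 45% over the 13.

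Most ADAM genes that could be measured read lower in B6.MRLc1 testes, with Adam1a as the exception. Of 39 readings per strain (13 probes on 3 arrays), 13 were detected in B6.MRLc1, against 34 in B6. Over all spots, control and outlier spots included, 55.3% to 61.8% were detected on B6.MRLc1 arrays and 65.5% to 65.9% on B6 arrays, where the detection limit was lower. The B6 means of Adam1b, Adam24 and Adam30 (-5.29, -5.41 and -5.24) lay under the average B6.MRLc1 limit of -4.94. For these genes a lower detection count does not show a lower level. Adam32 and Adam5, each with a probe detected on all 6 arrays, fell. Adam2, detected on 1 B6.MRLc1 array, and Adam18, detected on 0, were also called lower. Adam3 measured -3.28 on its probe at base 2646 and missed the threshold there, and Adam1a measured 0.093 with overlapping groups. Adam24 was near the detection limit in B6 and under it in B6.MRLc1. Adam1b and Adam30 were detected on 2 B6 arrays and 0 B6.MRLc1 arrays. Adam29 was not detected on any array of either strain. In whole testis, fewer cells of a type and less RNA per cell cannot be told apart. The summed signal of 10 elongating spermatid markers was also lower, 2.18 to 6.60 in B6.MRLc1 against 14.5 to 45.3 in B6, in units of the 75th percentile, and its part in the ADAM differences was not tested.

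**Figure D1:**
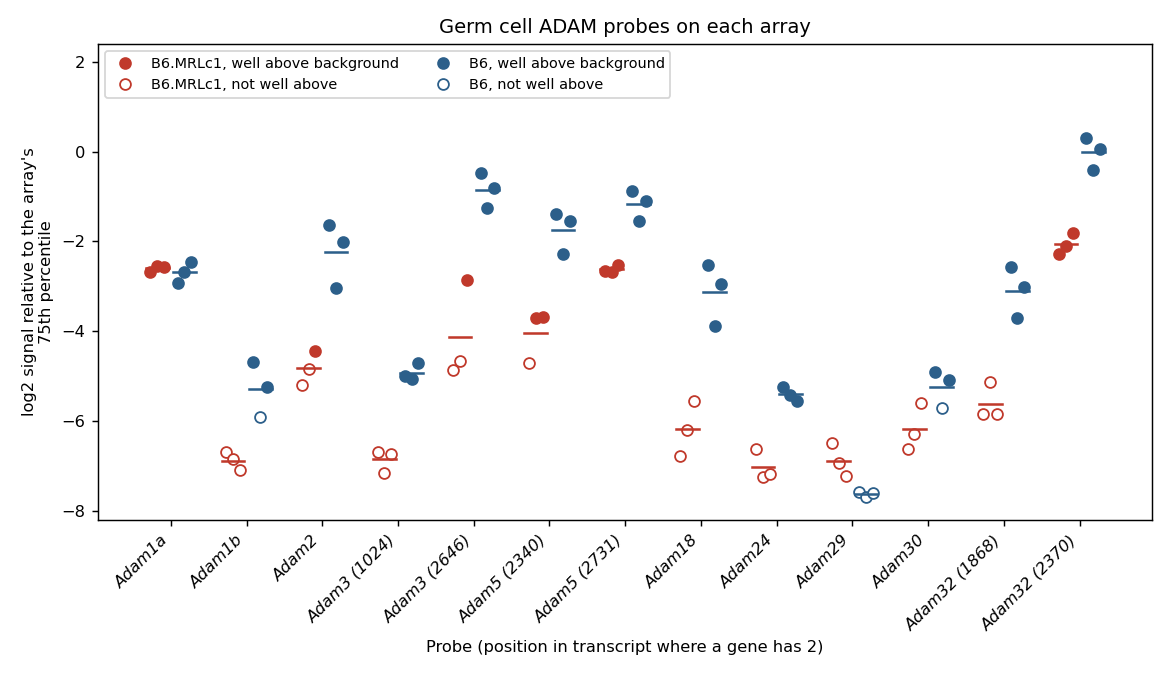
Log2 signal relative to each array's 75th percentile (y axis) for the 13 ADAM probes (x axis), 3 B6.MRLc1 arrays in red left of 3 B6 arrays in blue; bars are means, and open circles are spots not detected. The Adam1a groups overlap, and for Adam2, Adam3, Adam5, Adam18 and Adam32 every B6.MRLc1 point lies below every B6 point.

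Of the 13 probes, 10 passed the filter on dim probes, and 8 of these were called lower and 0 higher, against 1.58% of all tested probes called lower and 0.238% called higher. In a fit of the brightest probe of each gene, 6 of 7 genes were called lower, the same probes giving 5 calls in the fit over all probes, and in that fit 2.23% of 25275 genes were lower and 0.384% higher. With normexp, another background correction, 6 probes were lower (1.91% of all tested, with 0.822% higher), and when signals under a floor were lifted to it 1 was (0.882%, with 0.456% higher). Of the 10 probes, 4 were detected on the 3 B6 arrays alone, as were 3.14% of tested probes. Such probes enter the test only because B6 is high. All 4 were among the 8 called lower, namely Adam18, Adam24 and 1 probe each of Adam3 and Adam32. When signals were lifted to the floor, none of the 4 was called, and Adam24 and that Adam3 probe measured 0. Every B6.MRLc1 array lay below every B6 array for 9 of the 10, and that held for 13.3% of tested probes. It held for 10 of all 13 ADAM probes, against 10.2% of all probes. The 10 include Adam1b, Adam24 and Adam3 at base 1024, none of them detected in B6.MRLc1. Their B6 means of -5.29, -5.41 and -4.92 lay near or under the average B6.MRLc1 limit of -4.94, so their order is uncertain. Adam29, not detected on any array, lay the other way without overlap. Among the 3 probes detected on all 6 arrays, those of Adam5 and Adam32 were called lower and that of Adam1a was not, where 1.34% of 30995 such probes were called lower and 0.358% higher. The count of 8 depends on single arrays. Leaving out B6.MRLc1 array 1, 2 or 3 gave 2, 1 or 3 calls, and leaving out B6 array 1, 2 or 3 gave 0, 5 or 1. Under limma 9 of the 10 probes kept an unadjusted p under 0.05 in each of these 6 fits. No fitted difference of those 9 changed sign. The filter was set once on all 6 arrays, and the 9 include the 4 probes that entered only because B6 is high. For those 4 the kept sign and p add no support. Of all 36626 tested probes, 6875 had such a p in the fit of all arrays, and 4833 to 7879 in these 6 fits.

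The fertilin genes come first. Adam1a encodes the ADAM2 partner of the endoplasmic reticulum, and its probe read -2.67, -2.54 and -2.56 on B6.MRLc1 arrays 1 to 3, against -2.92, -2.69 and -2.45 on B6 arrays 1 to 3. The groups overlapped. The difference was 0.093 (SE 0.13, 95% interval -0.22 to 0.41, limma adjusted p = 0.727), and it measured -0.023 without B6 array 1. The interval leaves room for a change of up to 0.41 on the log2 scale.

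Adam2, which encodes the fertilin subunit common to both pairs, read -5.19, -4.84 and -4.45 in B6.MRLc1, against -1.64, -3.04 and -2.02 in B6. Its 3 B6.MRLc1 readings were all below the lowest B6 reading, although only that of array 3 was detected. The fitted difference was -2.59 (SE 0.39; limma adjusted p = 0.045), and with the other B6.MRLc1 readings under background its size is uncertain. With normexp background correction, whose offset of 50 draws dim values together, the difference was -1.09 and was still called (adjusted p = 0.0423). When signals under the floor were lifted to it, the difference was -2.24 and the call was lost (0.0727). Left-out arrays moved the adjusted p between 0.0389 and 0.123, and it passed only without B6 array 2.

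Because both partners were read on the same arrays, their gap does not depend on how arrays were scaled. Adam2 minus Adam1a was -2.52, -2.30 and -1.89 on B6.MRLc1 arrays, against 1.27, -0.36 and 0.43 on B6 arrays. On B6.MRLc1 arrays 1 and 2 the Adam2 spot was not detected, so the size of the gap is uncertain there. The mean gap differed by -2.68 between strains, without overlap (exact permutation test, two-sided, p = 0.1, the smallest that 3 against 3 arrays can give; 0.167 after Benjamini-Hochberg adjustment over 5 such pairs). Adam5 minus Adam1a, with the Adam5 probe at base 2731 and both probes detected on all arrays, was 0.011, -0.14 and 0.04 in B6.MRLc1, against 2.03, 1.14 and 1.35 in B6. That gap differed by -1.54, again without overlap (exact p = 0.1, adjusted 0.167). Both gaps were taken against Adam1a, whose own groups overlapped. They therefore repeat the strain differences of Adam2 and Adam5 and add no separate support. The other 3 pairs, the 3′ minus the 5′ probe of Adam3, Adam5 and Adam32, differed by -1.35, 0.85 and 0.47 (exact p = 0.2, 0.1 and 0.3, adjusted 0.25, 0.167 and 0.3), and each rests on 5′ spots that were not detected on at least 1 B6.MRLc1 array.

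Adam1b, the surface partner of ADAM2, could not be followed. Its probe, at chr5:121950199-121950258, read -6.69, -6.85 and -7.10 on B6.MRLc1 arrays, against -4.69, -5.92 and -5.25 on B6 arrays. It was detected on B6 arrays 1 and 3 only, did not pass the filter, and its B6 mean of -5.29 lay under the limit that B6.MRLc1 arrays could detect (-4.94 on average). No fold is given. Tested without the filter, it measured -1.59 (limma adjusted p = 0.108).

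Adam3 encodes the sperm protein also called cyritestin. On its probe at base 2646 it read -4.86, -4.66 and -2.86 in B6.MRLc1, against -0.48, -1.25 and -0.81 in B6. B6.MRLc1 array 3, the only one of its strain detected, read nearer to B6 than the other two. The fitted difference was -3.28 (SE 0.56) and missed the threshold over probes (limma adjusted p = 0.0566), and its size is uncertain for the same reason as that of Adam2. It passed with 1 probe per gene (0.0494), with normexp (-1.86, adjusted p = 0.0115), with a variance trend (0.0162) and when B6.MRLc1 array 3 was left out (-3.91, adjusted p = 0.0273). The other Adam3 probe, at base 1024, had 5.41, 4.25 and 5.31 intensity units on B6.MRLc1 arrays and 21.0, 19.2 and 22.3 units on B6 arrays. It was called (adjusted p = 0.0167), but it was detected on 0 B6.MRLc1 arrays and was at least 1.01-fold lower in B6.MRLc1, so the detection limit leaves its size open. With normexp it measured -0.19 and lost its call (adjusted p = 0.22), as it did without B6 array 1 (0.0687).

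Adam5, Adam18 and Adam32 are neighbours of Adam3 on chromosome 8 and encode sperm membrane proteins of the same family. Adam5 was detected on all 6 arrays at its probe at base 2731 (chr8:25843457-25843516), where it read -2.66, -2.68 and -2.52 in B6.MRLc1, against -0.88, -1.55 and -1.09 in B6. The 3 B6.MRLc1 values lay close together and apart from B6. Adam5 fell 2.72-fold, a difference of -1.44 (SE 0.18; limma adjusted p = 0.0311), and -1.05 under normexp (adjusted p = 0.0126). The adjusted p passed only without B6 array 2 among the fits that left out 1 array (0.027 to 0.0975).

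The Adam5 probe at base 2340 (chr8:25857130-25857189) read -4.71, -3.71 and -3.69 in B6.MRLc1, against -1.39, -2.29 and -1.55 in B6, with B6.MRLc1 array 1 not detected. The difference was -2.30 (SE 0.37; limma adjusted p = 0.0488), and measured -1.26 with normexp (0.0167). No fit that left out 1 array called it (0.0868 to 0.151). Both probes gave the same direction.

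Adam32 was detected throughout on 1 of its probes. At base 2370 (chr8:25946632-25946691) it gave 114, 142 and 160 units in B6.MRLc1, against 826, 485 and 604 units in B6. On the log2 scale these were -2.29, -2.09 and -1.81 in B6.MRLc1, against 0.31, -0.41 and 0.059 in B6. Adam32 fell 4.14-fold, a difference of -2.05 (SE 0.22; limma adjusted p = 0.024), and -1.67 under normexp (0.00705). This call held in 11 of 17 alternative settings. Leaving out B6 array 2 (0.0355) or B6.MRLc1 array 3 (0.0452) kept it, and leaving out any of the other arrays gave an adjusted p of 0.0564 to 0.0823. The Adam32 probe at base 1868 read -5.84, -5.14 and -5.85 in B6.MRLc1, where it was not detected, against -2.56, -3.70 and -3.02 in B6. It was at least 3.59-fold lower in B6.MRLc1 (limma adjusted p = 0.0359), and with normexp it measured -0.67 (adjusted p = 0.0549). With the floor it measured -1.40, smaller than that bound, and was not called (adjusted p = 0.103).

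Adam18, at chr8:25712756-25712815, read -6.77, -6.21 and -5.55 in B6.MRLc1, against -2.52, -3.88 and -2.95 in B6. It was detected on 0 B6.MRLc1 arrays and on all 3 B6 arrays. Set against the detection limit of each B6.MRLc1 array, Adam18 was at least 3.53-fold lower there (limma adjusted p = 0.0415). Under normexp it measured -0.89 (0.0432). Quantile normalization (0.0712) and the floor (-1.37, 0.145) lost the call, and the floor gave a smaller difference than that bound. In the fits without 1 array its adjusted p was 0.0571 to 0.123, so no such fit called it.

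None of the tested genes on either side of this cluster was called. Over all tested probes only 1.58% were called lower and 0.238% higher, so the lack of a call in these few genes says little. The probes of Adam18, Adam3, Adam5 and Adam32 span 268 kb of chromosome 8 (25712756 to 25981218, mm9). The cluster's probes that were detected on all arrays, Adam5 at base 2731 and Adam32 at base 2370, had 95% intervals of -1.88 to -1.01 and -2.58 to -1.52. Adam9, the widely expressed ADAM gene next to Adam32, measured -0.14 (95% interval -0.32 to 0.028; limma adjusted p = 0.334). Tcim, on the Adam18 side, measured 0.20 (interval -0.0037 to 0.40; adjusted p = 0.274). Beyond Adam9, Tm2d2 measured 0.021 (-0.12 to 0.16), Htra4 0.29 (0.022 to 0.55) and the Plekha2 probes 0.10 and 0.14, none of them called. Ido1, Ido2 and 9130214F15Rik, between Tcim and Adam18, were not detected on any array. The flank of 200 kb was set after the values were seen. The intervals of Adam9, Tcim, Tm2d2 and Htra4 do not reach those of Adam5 at base 2731 and Adam32 at base 2370, although no test of that difference was run. Both of these cluster probes were among those called lower.

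**Figure D2:**
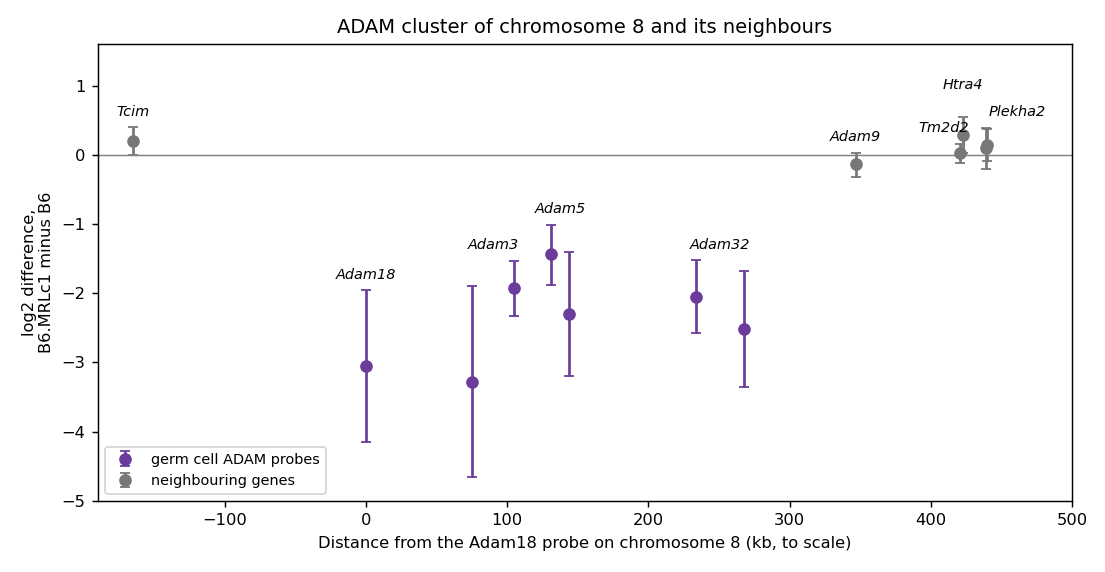
Log2 difference, B6.MRLc1 minus B6 (y axis, with 95% intervals), against distance from the Adam18 probe in kb (x axis), for the tested probes of the chromosome 8 cluster (purple) and of genes within 200 kb (grey). The grey points lie between -0.14 and 0.29 and the purple points below them; of the 7 purple points, those of Adam18, Adam3 at base 1024 and Adam32 at base 1868 were not detected in B6.MRLc1, so their sizes are not measured.

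The remaining genes were dim. Adam24, farther along chromosome 8 (41767082 to 41767141), encodes testase 1, which unlike ADAM3 keeps a protease site. It had 5.64, 3.97 and 3.89 intensity units in B6.MRLc1, against 17.5, 15.2 and 12.2 units in B6. It was called lower (limma adjusted p = 0.0285), but B6 itself lay under the average limit of the B6.MRLc1 arrays, so no fold is given. With normexp it measured -0.073 (adjusted p = 0.583), and of the fits without 1 array only that without B6.MRLc1 array 1 called it (0.0308). Adam30, on chr3:97965913-97965972, read -6.63, -6.28 and -5.59 in B6.MRLc1, against -4.91, -5.72 and -5.09 in B6. The groups overlapped at -5.59 on B6.MRLc1 array 3 and -5.72 on B6 array 2, and without the filter it measured -0.93 (adjusted p = 0.194). Adam29, on chr8:58350451-58350510, had 3.78 to 6.23 units in B6.MRLc1 and 2.97 to 3.49 units in B6, all below the detection limit, where values have no order.

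**Figure D3:**
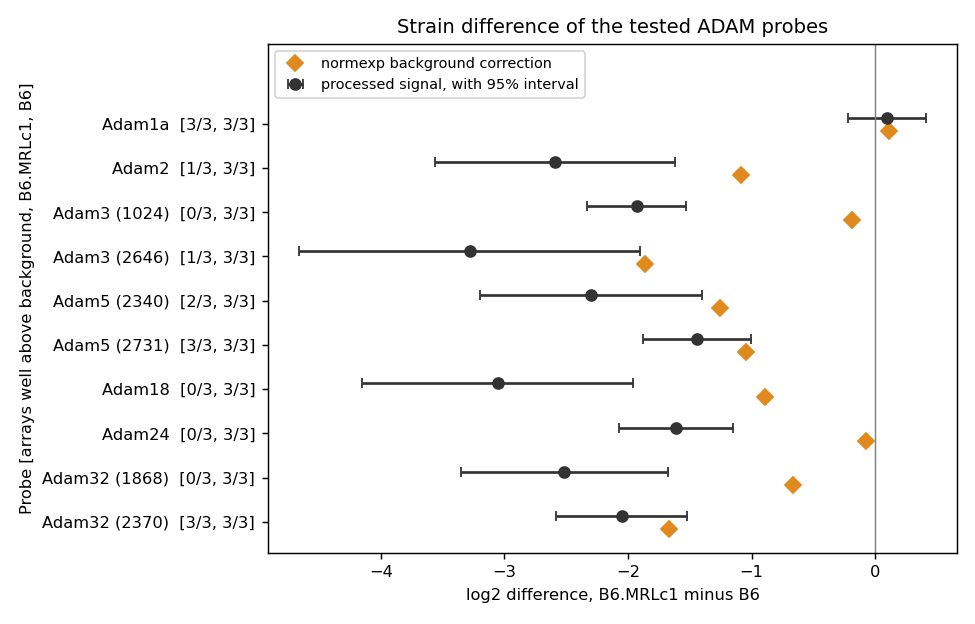
Log2 difference, B6.MRLc1 minus B6 (x axis), of the 10 tested ADAM probes (y axis, with the number of arrays detected in brackets): black points are the processed signal with 95% intervals, and orange diamonds are the same probes with normexp. The difference shrinks most with normexp where no B6.MRLc1 array was detected, as for Adam24 (-1.61 against -0.073).

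Within B6, array 1 gave the highest reading for 8 of the 10 tested ADAM probes, against 31.8% of all tested probes, and array 2 the lowest for 8, against 27.8%. Adam2, for example, had 213 intensity units on B6 array 1 and 78.3 on B6 array 2, and Adam18 had 116 and 43.8 units on those arrays. Adam1a ran the other way, at -2.92 on B6 array 1 and -2.69 on B6 array 2.

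Other ADAM genes were compared by the brightest probe of each. Of 10 further genes known mainly from testis germ cells, 8 were tested, and 1 fell and 0 rose. Adam6a, whose protein joins ADAM3 complexes in mouse sperm, was detected on 3 B6 arrays and on 0 of B6.MRLc1. It was at least 2.03-fold lower in B6.MRLc1 (limma adjusted p = 0.037), and measured -0.77 with normexp (0.0466). With the floor it measured -0.60, smaller than that bound, and was not called (0.432). Of the fits without 1 array only that without B6 array 3 called it (0.047), and it belongs to a family of similar genes that the probe may not tell apart. Adam6b, of that family, was detected on all arrays and measured -0.0028 (limma adjusted p = 0.993), so the Adam6a reading does not stand for both genes. Adam25 and Adam26a, not detected in B6.MRLc1, were at least 1.27- and 1.03-fold lower there and were not called. With the floor they measured -0.005 and -0.0034. Adam26b, Adam39 and Adam4 measured -0.075, -1.33 and -0.11 and were not called. Adam39 and Adam4 were detected on 1 and 2 B6.MRLc1 arrays, so their sizes are uncertain. Adam26a and Adam4 turned sign with normexp (0.091 and 0.13). The list's median was -0.25, against 0.016 over all tested probes and -2.05 over the 7 member genes tested. With normexp these medians were 0.042, 0.049 and -1.05, and over genes detected on all arrays -0.039 for the 2 further genes and -1.44 for the 3 members. Of 14 widely expressed ADAM genes 11 were tested, and limma called 0. It gave 0 an unadjusted p under 0.05, against 6875 of all 36626 tested probes. Adam9, Adam10, Adam12, Adam17, Adam22 and Adam33 measured -0.14, -0.11, 0.34, -0.11, -0.26 and -0.13, and Adam17 and Adam22 turned sign with normexp (0.017 and 0.045).

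Other genes are known for bringing ADAM3 or fertilin to the sperm surface in mice. Of 14 such genes, all tested, 2 fell and 0 rose, with a median of -0.22. Lypd4, which encodes a GPI-anchored germ cell protein, was detected on all arrays and fell by 2.42 (SE 0.30; limma adjusted p = 0.0316), and by 1.49 with normexp. It stayed called only without B6.MRLc1 array 3 (0.0452), and without the other arrays its adjusted p was 0.0657 to 0.103. Cmtm2b, a membrane protein gene, had 0 detections in B6.MRLc1 and was at least 2.23-fold lower there (adjusted p = 0.0165), with -0.48 under normexp. With the floor it measured -0.71, smaller than that bound, and lost its call (0.175). Without B6.MRLc1 arrays 1 and 2 and B6 array 1 its adjusted p was 0.0576, 0.0617 and 0.0662. Clgn, the germ cell chaperone calmegin, measured -1.26 (adjusted p = 0.0515) and passed with normexp (-1.10, 0.0194). Prss55 measured -3.35 (0.0557) and passed with normexp (-1.09, 0.0352). Pdilt, a testis protein disulfide isomerase, measured -2.62 (0.11), and -0.73 with normexp (0.0558). Prss55 and Pdilt were each detected on 1 B6.MRLc1 array, so the sizes are uncertain. With the floor they measured -1.68 (0.115) and -1.75 (0.0858). Prss37 measured -0.86 (0.149). The other 8 genes lay between -0.22 and 0.23.

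Among 12 other genes of sperm-egg adhesion, 7 were tested, and 1 fell and 0 rose. The median was -0.52, but -0.046 with normexp and 0.078 over the 4 genes detected on all arrays. Zpbp2, of the acrosomal matrix, fell by 1.36 (SE 0.19; limma adjusted p = 0.037) and was detected on all arrays. Its call was lost on leaving out any 1 array (0.0757 to 0.121) except B6 array 2 (0.0419). Crisp2, Spesp1 and Tmem95, each not detected in B6.MRLc1, were at least 1.95-, 1.51- and 1.05-fold lower there. With the floor they measured -0.56, -0.24 and -0.018. Spaca6 and Cd46 measured 0.086 and 0.21. None of these 5 was called.

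**Figure D4:**
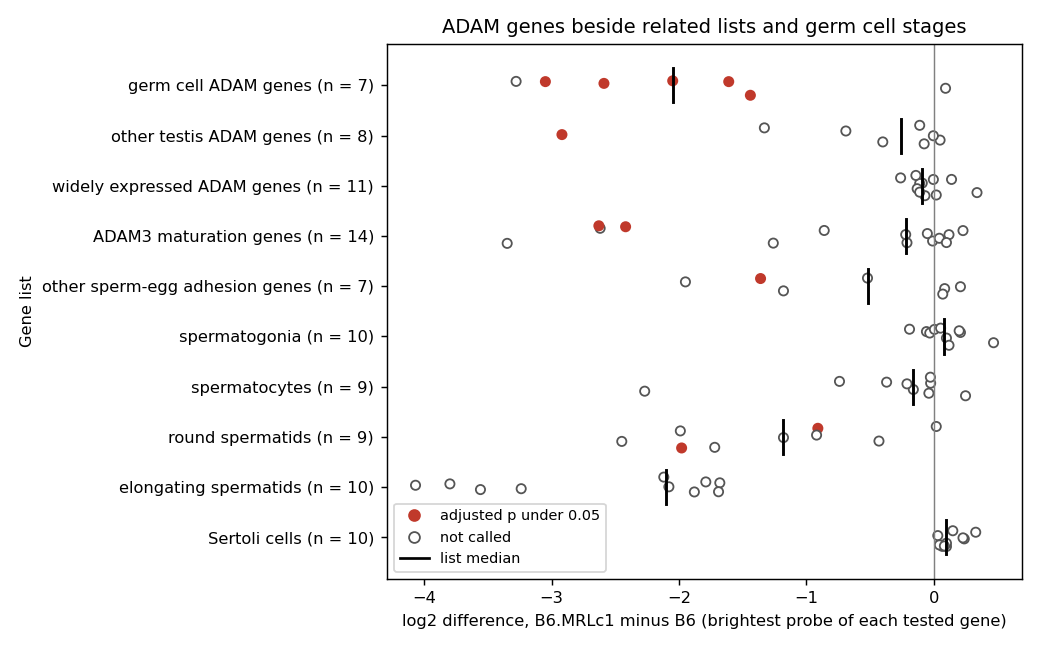
Log2 difference, B6.MRLc1 minus B6 (x axis), for the brightest probe of each tested gene, by gene list (y axis); red points passed limma's adjusted p under 0.05 and black bars are list medians. The median was -2.05 over the 7 tested genes described here, -0.25 over 8 other germ cell ADAM genes and -0.09 over 11 widely expressed ADAM genes. With normexp these medians were -1.05, 0.042 and -0.031. Over the 3, 2 and 10 genes of these lists detected on all arrays they were -1.44, -0.039 and -0.079.

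Markers of spermatids also read lower in B6.MRLc1. The 10 elongating spermatid markers summed above had a median difference of -2.10. Limma called 0 of them, with all 10 at an unadjusted p under 0.05, and with normexp it called 6 lower. For this and the counts below, 6875 of all 36626 tested probes had an unadjusted p under 0.05. The summed signal of 10 round spermatid markers was 2.13 to 2.54 in B6.MRLc1, against 4.73 to 7.04 in B6, with a median of -1.18 (-0.44 with normexp). Dkkl1 and Gsg1, with the highest B6 means (0.75 each), made up much of the B6 sum. Of the 9 tested markers 2 were called lower, Dkkl1 (-1.98, limma adjusted p = 0.0292) and Acr (-0.91, 0.0316). Gsg1, Sun5 and Spaca1, all detected on all arrays, measured -2.45, -0.43 and 0.02 and were not called (limma adjusted p = 0.0899, 0.202 and 0.953). Leaving out any 1 array lost the Dkkl1 call (0.0549 to 0.101), and only leaving out B6.MRLc1 array 3 kept the Acr call (0.0487, otherwise 0.0645 to 0.103). Spermatocyte markers summed to 11.3 to 12.8 in B6.MRLc1 and 12.4 to 14.1 in B6, and spermatogonial markers to 32.1 to 34.5 and 30.5 to 32.1, with none called in either list (5 of 9 and 0 of 10 at an unadjusted p under 0.05). Sertoli cell markers summed to 638 to 669 in B6.MRLc1 and 578 to 653 in B6, and no marker was called (3 of 10 at an unadjusted p under 0.05). The part of these shifts in the ADAM differences was not tested. Of 8 epididymis markers, 7 were not detected on any array. The summed level was 18.2 to 24.5 in B6.MRLc1 and 10.4 to 18.8 in B6. Nearly all of it came from the remaining marker, Cst8, which measured 0.60 and was not called (limma adjusted p = 0.258). Adipocyte markers summed to 6.76 to 13.7 in B6.MRLc1 and 3.72 to 6.15 in B6, with Lep not detected and none called (4 of 5 at an unadjusted p under 0.05). Of the other lists, Leydig cell, peritubular myoid and macrophage markers had 0 called by limma (3 of 7, 2 of 6 and 1 of 8 at an unadjusted p under 0.05) and medians of 0.29, 0.15 and -0.17, and of 4 red cell markers (median 0.47) Alas2 was lower (-1.04, adjusted p = 0.0099). With normexp 1 Leydig cell marker, Hsd3b6, was called higher (0.98, adjusted p = 0.0319), and it was named after its value was seen.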

How the data were processed

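Total RNA of each testis sample was labelled with Cy3 from 0.1 ug and hybridised to a 1-colour Agilent array, per the labels' protocols. Linear intensity per spot, as deposited, had been through the authors' scanner software, which subtracted background, detrended it and set surrogates near background, per the file headers. The tables also hold flags of 0 or 1. That software is Feature Extraction 10.7.3.1 per the file headers, and 9.5.3 per the submitters' processing notes. The deposited series table holds log2 values, centred per probe by steps not given in the sources used here, and was used as an alternative. Build mm9 is named in the file headers.

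Control and outlier spots were dropped, except from the shares of all spots detected. Signals were divided by the 75th percentile of their array before log2. Probes with values on at least 4 arrays and well above background on at least 3 were tested with lmFit and eBayes (limma 3.58.1, R 4.3.3), after a check on simulated data. The number of arrays limits the precision. A bound ("at least") sets the B6 mean against a B6.MRLc1 mean on the processed scale. Each B6.MRLc1 array enters that mean with the probe's value or, if higher, the array's dimmest detected signal. The bound depends on that limit and is not a strict minimum. Gaps between probes were compared by exact permutation (scipy 1.17.1). Gene symbols of other lists came through RefSeq accessions (GRCm38.p6) for 48.9% of probes and otherwise from the files. All ADAM probes were named by rule. Of the other ADAM, ADAM3 maturation and sperm-egg lists, the called genes and then those of smallest p were named, up to 6. Of cell type markers the called ones were named, and 1 Leydig cell marker called under normexp. Lep and Cst8 were named for their detection, and Adam6b, Gsg1, Spaca1 and Sun5 after their values were seen. The members and lists were chosen with earlier results of these data known.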

Additional observations from a re-analysis of the deposited data

How the results depend on the processing

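Over all probes, 665 were called (578 lower, 87 higher), 1000 with normexp (699 lower, 301 higher), 1388 with a variance trend, 1313 with array weights, 55 without the filter on dim probes and 45 to 367 without 1 array. Of the ADAM probes 8 were called, 6 with normexp, 2 of 3 among probes well above background on all arrays, 1 with dim values raised to a floor, 2 of 6 with the deposited series values, and 0 to 5 without 1 array. Without the filter limma called 0 of 13, with 12 at an unadjusted p under 0.05, as were 12243 of all 55681 probes. The replicate number was also the slide column. With it as a replicate block 2 probes were called, and 0 ADAM probes, with 9 at an unadjusted p under 0.05. Of all 36626 tested probes 6550 were at such a p in that fit. Deviations from the strain means correlated at -0.0297, 0.143 and 0.0879 for numbers 1 to 3, so the numbers were not taken as pairs. Of 156 recomputed ADAM differences 69 lost a call, 4 gained one and 1 changed sign, Adam1a without B6 array 1 (-0.023, with -0.023 to 0.21 over the left-out arrays). None of the signs that turned belonged to a called gene: Adam26a with normexp (0.091), Adam4 with normexp (0.13), with the floor (0.056), with the deposited values (0.09), with array weights (0.02) and without B6.MRLc1 array 1 (0.091, with -0.30 to 0.091 over the left-out arrays), Adam22 and Adam17 with normexp (0.045 and 0.017), and Tm2d2 with normexp (-0.022), with quantile normalization (-0.00092) and without B6 array 2 (-0.0078, with -0.0078 to 0.039 over the left-out arrays). The cause was not tested for any of these. Signal near background limits Adam1b, Adam24, Adam29, Adam30, Adam18 and the 5′ probes of Adam3 and Adam32 in B6.MRLc1, where Adam2 and the other Adam3 probe were detected on 1 array and the 5′ Adam5 probe on 2.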

Other observations

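The genes whose pattern over the 6 arrays was most like the mean of the 3 ADAM probes detected on all arrays (Adam1a, Adam5 at base 2731 and Adam32 at base 2370) were Eid3, Atp8b3, Zpbp2, Ube2t and Catsperz. Atp8b3 encodes a phospholipid transporter of the acrosome, Zpbp2 an acrosomal protein and Catsperz a subunit of the sperm calcium channel. No function is given here for Eid3 and Ube2t, and a shared function of these genes was not tested. Pearson's r was 0.9967, 0.9956, 0.9953, 0.9950 and 0.9948, over 14300 other named genes detected on all arrays. These are descriptions over 6 arrays that share a strain difference, and 263 genes had an r over 0.95. The genes measured -1.56, -1.77, -1.36, -0.50 and -2.70 (limma adjusted p = 0.0366, 0.0332, 0.037, 0.0346 and 0.0316).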
